A study of Mus musculus with 2 samples.

Results

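The Notch pathway of mouse cardiac myofibroblasts was examined through 10 genes: the receptors *Notch1*, *Notch2* and *Notch3*, the ligands *Jag1* and *Jag2*, the target genes *Hes1*, *Hey1*, *Hey2* and *Heyl*, and *Rbpj*. They were taken by gene symbol from a table of 24532 genes, and all 10 were listed there. Cardiac myofibroblasts are the collagen-producing cells of the injured heart. Here they came from the infarcted hearts of mice labelled C57BL/6, 3 days after myocardial infarction (MI), as the CD45-negative cells that had attached to plastic. For work on isolated myofibroblasts the study's methods name the substrain C57BL/6J. The study asked what *Vgll3*, a gene for a transcription cofactor that binds TEAD proteins, does in these cells. One culture received a control siRNA (siCtrl) and the other an siRNA against *Vgll3* (si*Vgll3*), each at 12.5 nM, and RNA was collected 72 h after transfection. Each condition has 1 library, so no difference below has a replicate check, no p-value is given, and the siRNA cannot be told apart from other differences between the cultures.

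Notch receptors are membrane proteins that are activated by ligands of the Jagged and Delta families on a neighbouring cell. Ligand binding leads to cleavage of the receptor, and the freed intracellular domain moves to the nucleus and joins RBPJ, the DNA-binding protein of the pathway. RBPJ without Notch recruits corepressors, and with Notch and a Mastermind coactivator it activates genes such as *Hes1*, *Hey1*, *Hey2* and *Heyl*, which encode transcriptional repressors of the basic helix-loop-helix class. In the heart and its vessels, the pathway is known for its roles in endothelial and mural cells and in valve development.

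Levels are given as TPM, which the authors had corrected for the length of each gene and for depth, and reads are the deposited counts per gene. M stands for log2 of the TPM in si*Vgll3* divided by that in siCtrl, and A for log2 of the mean of both libraries. The lower threshold has the cutoffs of the study's MA plot, and the higher one was set here as its mirror image. The study does not state how it computed M and A. Its number of lower genes is close to, but not the same as, the 1341 found here. A gene was taken as lower at M < −0.5 and A > 0, and as higher at M > 0.5 and A > 0. Square brackets after M hold a 95% Clopper-Pearson interval, computed from the reads of both libraries and shifted onto the TPM ratio. These intervals cover counting error only. The libraries held 140815237 gene-assigned reads (siCtrl) and 125789276 (si*Vgll3*). *Vgll3* itself was at 202 TPM in siCtrl against 84.0 TPM in si*Vgll3*, so that 41.6% of its level was left.

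Most of the 10 genes had lower mRNA levels in the si*Vgll3* library, and *Rbpj* had a higher one. TPM was listed for 9 of the 10 genes, all but *Jag2*, and all 9 had A > 0. Of these, 6 lay below −0.5 (*Notch1*, *Notch3*, *Jag1*, *Hey1*, *Hey2* and *Heyl*), against 11.4% of all 11754 genes with A > 0. *Rbpj* was the 1 gene above 0.5, against 5.73% of all genes. *Notch2* and *Hes1* were also below 0, but lay between the thresholds. The median M of the 9 genes was −0.71, against −0.05 over all genes. These contrasts are not independent of the values, since the genes were chosen with earlier results of these data known. Of the 57 other pathway genes with A > 0, described below, 7.02% were lower. *Hey1* and *Hey2* were under 1 TPM in si*Vgll3* and reached A > 0 only through the siCtrl library. With A > 2, which leaves both out, 4 of 7 genes were lower, against 928 of all 9938 genes with A > 2. The median of the 7 was −0.67. With the entire counting interval required to be past the threshold, 5 genes were lower, without *Hey2*, against 8.31% of all genes, and *Rbpj* was higher, against 3.76%. In bulk RNA, fewer cells of a type and less RNA per cell cannot be told apart.

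**Figure D1:**
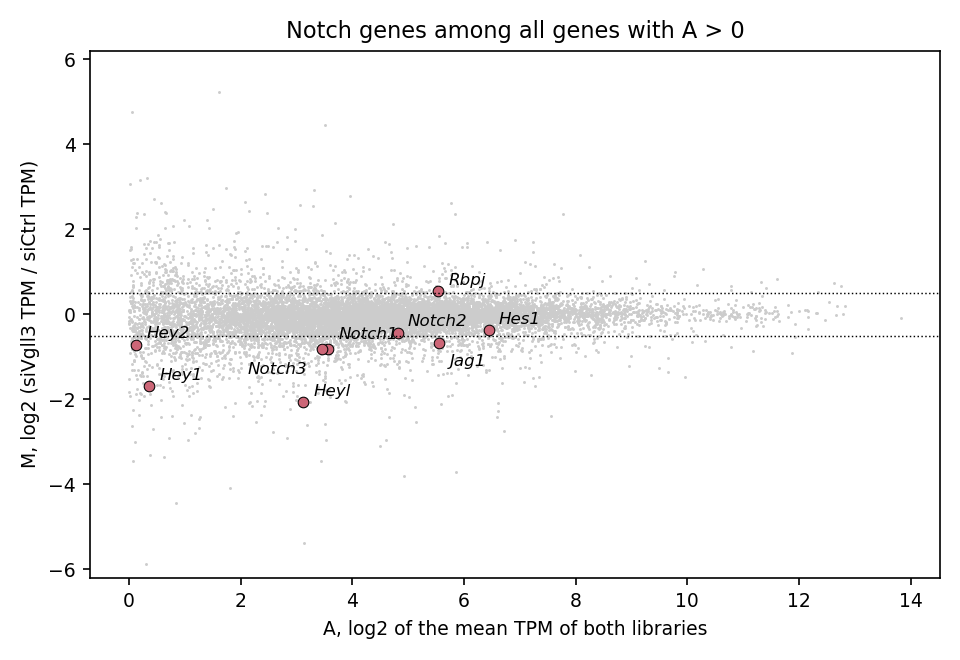
MA plot of the 11754 genes with A > 0 (grey points), with A, log2 of the mean TPM of both libraries, on the horizontal axis and M, log2 of si*Vgll3* TPM over siCtrl TPM, on the vertical axis. The 9 Notch genes are the named red points, the dotted lines mark M of −0.5 and 0.5, and of these 9, *Heyl* at −2.07 and *Hey1* at −1.69 lie lowest and *Rbpj* at 0.54 lies highest.

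The receptors were of unequal abundance. *Notch2* (NCBI gene 18129, chromosome 3 of GRCm38, 98013538 to 98150367) was the most abundant, at 32.2 TPM in siCtrl against 23.9 TPM in si*Vgll3*, from 21619 and 14838 reads. Its M of −0.43 [−0.46, −0.40] was above the threshold, and its whole interval was below 0. *Notch1* (NCBI gene 18128, chromosome 2, 26457902 to 26503822) was at 15.1 TPM in siCtrl against 8.50 TPM in si*Vgll3*, from 9133 and 4767 reads. That is an M of −0.83 [−0.88, −0.78], with 56.4% of the siCtrl level left. *Notch3* (NCBI gene 18131, chromosome 17, 32120820 to 32166896), the receptor best known from vascular mural cells, was at 14.1 TPM in siCtrl against 7.97 TPM in si*Vgll3*. Its reads numbered 7140 and 3742 and its M was −0.82 [−0.88, −0.76], with 56.6% of the level left.

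*Notch1* and *Notch3* thus had near-equal ratios, while that of *Notch2* was smaller in size. Exact conditional intervals were computed for the difference in M between genes of a kind, over 12 pairs in all, and 10 of these intervals did not hold 0. The difference between *Notch1* and *Notch3* was −0.01 [−0.08, 0.07], within counting error. *Notch1* lay below *Notch2* by a difference of −0.40 [−0.45, −0.34], and *Notch2* lay above *Notch3* by 0.39 [0.32, 0.45]. Summed over the 3 receptors, the level was 61.4 TPM in siCtrl against 40.4 TPM in si*Vgll3*, an M of −0.60. *Notch2* made up 52.5% of this sum in siCtrl and 59.2% in si*Vgll3*. The fourth mammalian receptor, *Notch4*, known mainly from endothelium, was set beside them from the wider pathway list. It had 4410 and 4182 reads and 10.5 and 10.7 TPM, an M of 0.04 [−0.03, 0.10]. *Notch4* was therefore the one receptor whose interval from TPM held 0. With reads scaled to the total of each library in place of TPM, its M was 0.09 [0.02, 0.15], which did not hold 0. The difference in M from *Notch4* was −0.86 [−0.94, −0.78] for *Notch1*, −0.47 [−0.53, −0.40] for *Notch2* and −0.86 [−0.94, −0.77] for *Notch3*. In siCtrl *Notch4* had the lowest TPM of the receptors, and in si*Vgll3* it was above both *Notch1* and *Notch3*. The receptor sum above leaves *Notch4* out, and with *Notch4* the drop in the sum would be smaller in proportion.

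**Figure D2:**
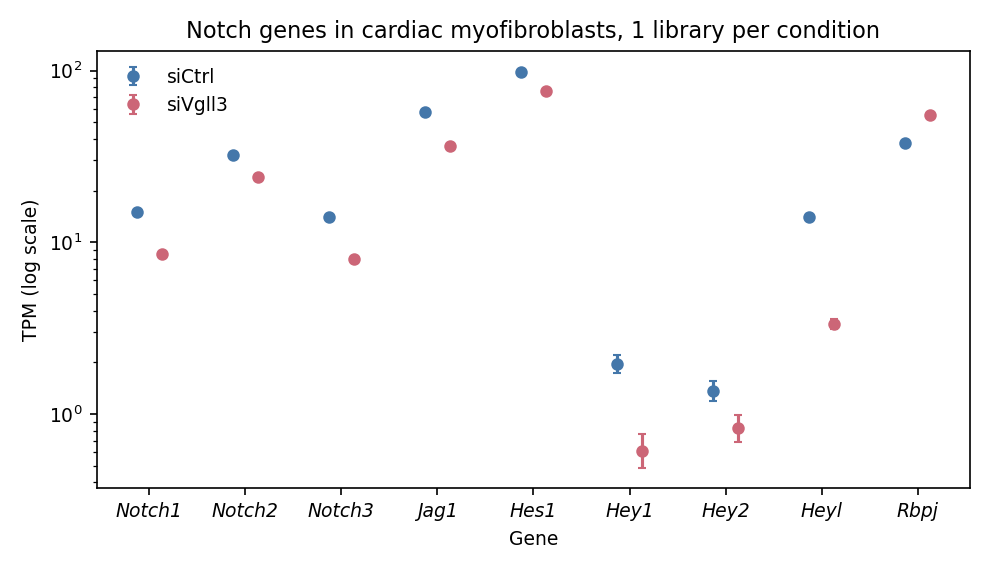
TPM (log axis) of the 9 Notch genes in siCtrl (blue) and si*Vgll3* (red), 1 library each, with 95% exact Poisson intervals of the read counts as bars, many of them shorter than the points. The red point lies below the blue point for each gene but *Rbpj*, from 38.0 TPM to 55.2 TPM, and the gap is widest for *Heyl*, from 14.1 TPM to 3.35 TPM.

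Among the ligands, *Jag1* was abundant and *Jag2* was close to the limit of detection. *Jag1* (NCBI gene 16449, chromosome 2, 137081451 to 137116520) encodes the Jagged ligand that many mesenchymal cells make. It had 20175 reads in siCtrl against 11749 in si*Vgll3*, which gave 57.5 TPM and 36.2 TPM and an M of −0.67 [−0.70, −0.64]. Thus 62.9% of the siCtrl level was left. In both libraries *Jag1* was above each of the receptors in TPM. *Jag2* (NCBI gene 16450, chromosome 12, 112907803 to 112929812) had 4 reads in siCtrl against 10 in si*Vgll3* and is not in the TPM tables. Scaled to the total reads of each library (CPM), that is a ratio of 2.80 with an interval from 0.807 to 12.2, so no direction was detectable at this depth. The Delta-family ligands were also scarce, with 112 and 81 reads for *Dll1*, 28 and 31 for *Dll4*, and 0 reads in both libraries for *Dll3*, where a count of 0 allows up to 3 reads.

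The target genes ranged widely in M. *Hes1* (NCBI gene 15205, chromosome 16, 30065357 to 30067796), a target that pathways other than Notch also control, had the highest level of all 9 genes. It was at 97.9 TPM in siCtrl against 75.7 TPM in si*Vgll3*, from 9066 and 6495 reads. With an M of −0.37 [−0.42, −0.32] it lay between the thresholds, and 77.4% of its level was left.

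*Heyl* (NCBI gene 56198, chromosome 4, 123233556 to 123249870), the Hey factor known from vascular smooth muscle and downstream of NOTCH3, had the lowest M. Its reads numbered 4075 in siCtrl against 898 in si*Vgll3*, or 14.1 TPM and 3.35 TPM. This is an M of −2.07 [−2.18, −1.97], a level 4.20 times higher in siCtrl. Only 0.442% of the 11754 genes had a lower M. For comparison, 1.98% of genes had a lower M than *Vgll3*, the gene targeted by the siRNA.

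*Hey1* (NCBI gene 15213, chromosome 3, 8663359 to 8667038) was next, with 277 reads in siCtrl against 80 in si*Vgll3*. This gave 1.97 TPM and 0.611 TPM, an M of −1.69 [−2.06, −1.32], and 0.868% of genes had a lower M. *Hey2* (NCBI gene 15214, chromosome 10, 30832359 to 30842783), best known from arterial endothelium and the ventricular wall, had 220 and 125 reads, or 1.36 TPM and 0.830 TPM. Its M of −0.71 [−1.04, −0.39] lay below the threshold, but the interval reached above it. When 1 TPM was added to each level, *Hey2* was at −0.37 and no longer passed, while *Hey1* was at −0.88. The low read numbers of both genes set the width of their intervals.

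Compared with each other, *Heyl* and *Hey1* had lower ratios than the other targets. The difference in M between *Hes1* and *Heyl* was 1.70 [1.59, 1.82], and between *Hes1* and *Hey1* it was 1.32 [0.95, 1.70]. *Hey2* lay above *Heyl* by 1.36 [1.01, 1.70], and *Hey1* lay below *Hey2* with a difference of −0.97 [−1.47, −0.48]. *Hey1* and *Heyl* differed by 0.39 [−0.01, 0.77], which includes 0. *Hes1* differed from *Hey2* by 0.34 [0.02, 0.67]. The 3 Hey genes together were at 17.4 TPM in siCtrl against 4.79 TPM in si*Vgll3*, an M of −1.86. With *Hes1* included, the sum was 115 TPM in siCtrl against 80.5 TPM in si*Vgll3*. *Hes1* made up 84.9% of this sum in siCtrl and 94.0% in si*Vgll3*, and *Heyl* made up 12.2% and 4.16%.

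**Figure D3:**
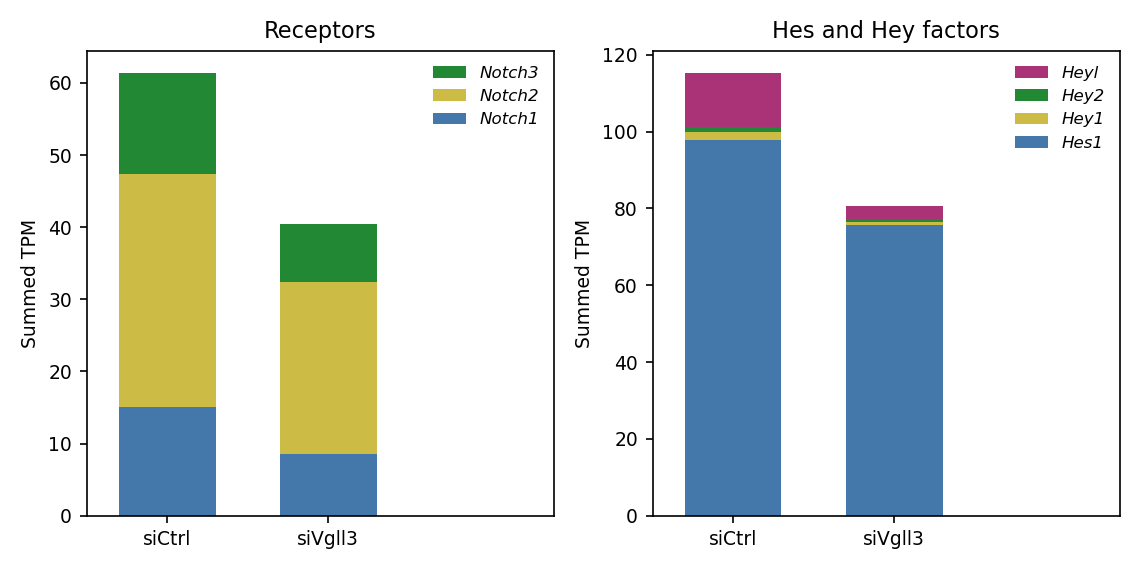
Summed TPM of the receptors *Notch1*, *Notch2* and *Notch3* (left) and of the Hes and Hey factors (right) in siCtrl and si*Vgll3*. Each condition has 1 library, and each gene is a coloured segment. The receptor sum is 61.4 TPM in siCtrl against 40.4 TPM in si*Vgll3*, and on the right the segment of *Heyl* is 14.1 TPM and then 3.35 TPM while *Hes1* stays the largest segment.

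*Rbpj* (NCBI gene 19664, chromosome 5, 53555779 to 53657445), which encodes the DNA-binding partner of all Notch receptors, went the other way. It had 13343 reads in siCtrl against 17704 in si*Vgll3*, which gave 38.0 TPM and 55.2 TPM and an M of 0.54 [0.51, 0.57], a level 1.45 times higher in si*Vgll3*, and the lower bound was just past the threshold. Per summed TPM of *Notch1* to *Notch3*, the TPM of *Rbpj* was 0.620 in siCtrl and 1.37 in si*Vgll3*. The table lists 4 transcripts for *Rbpj* and 1 for each of the others. The M from TPM was lower than the M from CPM by a difference of −0.03 for *Rbpj* and by −0.05 to −0.06 for the other 8 genes, so CPM gave *Rbpj* an M of 0.57. Mouse also has the *Rbpj* pseudogenes *Rbpj-ps1*, *Rbpj-ps2* and *Rbpj-ps3*, which the table does not count, and reads shared with them cannot be told apart.

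In siCtrl, the order of the levels was *Hes1*, *Jag1*, *Rbpj*, *Notch2*, *Notch1*, *Heyl*, *Notch3*, *Hey1* and *Hey2*. The Poisson intervals of neighbours overlapped for 1 pair, *Heyl* (13.7 to 14.5 TPM) and *Notch3* (13.8 to 14.4 TPM). In si*Vgll3* the order was *Hes1*, *Rbpj*, *Jag1*, *Notch2*, *Notch1*, *Notch3*, *Heyl*, *Hey2* and *Hey1*. *Rbpj* and *Jag1* had changed places, *Heyl* stood below *Notch3*, and the intervals of *Hey2* (0.691 to 0.989 TPM) and *Hey1* (0.485 to 0.761 TPM) overlapped.

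RBPJ binds DNA at sites with the core letters TGGGAA, and TEAD proteins, the partners of VGLL3, bind at sites with GGAATG. To show where these letters stand near the genes described above, the promoter windows that RefSeq gives on GRCm38.p6 were searched on both strands, from 250 bases before to 50 bases after each start site. A window was found for 7 of the 10 genes (8 windows), all but *Hes1*, *Hey1* and *Heyl*. The RBPJ letters were present for 2 of the 7, *Hey2* and *Rbpj*, and for 28.3% of all 27025 genes with a window. The TEAD letters were present for 3 of the 7, *Hey2*, *Notch1* and *Rbpj*, and for 16.6% of all genes. The cores share letters, and they overlap as TGGGAATG on the reverse strand of the *Hey2* window, which occurs on either strand for 1.69% of all genes. In the windows of *Notch2*, *Notch3*, *Jag1* and *Jag2* neither core was found. A match is a description of the letters and not a binding site. The stretches of the 3 genes with a match are shown 5′ to 3′ in the direction of the gene, limited to bases before the start site that no annotated exon holds, with the RBPJ and TEAD letters of either strand in capitals.

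*Hey2*, chr10:30842802-30843033, minus strand: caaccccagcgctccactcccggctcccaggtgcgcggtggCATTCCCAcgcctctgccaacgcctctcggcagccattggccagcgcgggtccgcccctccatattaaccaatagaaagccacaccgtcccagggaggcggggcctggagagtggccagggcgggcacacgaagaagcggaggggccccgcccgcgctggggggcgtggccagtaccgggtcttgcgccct
*Rbpj*, chr5:53590096-53590213, plus strand: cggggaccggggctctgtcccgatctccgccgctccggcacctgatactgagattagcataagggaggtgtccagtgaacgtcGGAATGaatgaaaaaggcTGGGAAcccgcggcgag
*Notch1*, chr2:26503825-26504072, minus strand: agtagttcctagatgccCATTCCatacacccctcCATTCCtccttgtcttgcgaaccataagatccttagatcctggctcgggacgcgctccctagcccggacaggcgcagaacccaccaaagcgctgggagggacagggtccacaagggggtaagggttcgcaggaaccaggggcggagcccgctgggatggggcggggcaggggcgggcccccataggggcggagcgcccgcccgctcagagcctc

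In *Hey2*, the overlapping letters span −209 to −202 from the start site, and another TGGGAA lies across the start site itself, at −3 to 3, outside the stretch shown. The *Rbpj* window with both cores has the TEAD letters at −167 to −162 and the RBPJ letters at −149 to −144. A further RBPJ match lies on the reverse strand at −65 to −60. The *Rbpj* windows, from 53590096 and 53590236, lie inside the gene, which begins at 53555779, so that first position was not searched. The *Jag2* window, from 112929446 to 112929745 on the minus strand, likewise leaves out the first position of that gene, at 112929812. *Notch1* has the TEAD letters on the reverse strand at −233 to −228 and at −216 to −211. Of the 3 genes with TEAD letters, *Hey2* and *Notch1* were lower and *Rbpj* was higher in si*Vgll3*. *Heyl* and *Hey1*, with the lowest M, had no window. Any part of these letters in the levels was not tested.

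The rest of the pathway was taken from 7 lists with 72 further genes, of which 68 had a read and 57 had A > 0. Their M had a median of −0.12, and 44 (77.2%) were below 0, against 57.0% of all genes with A > 0. Only 4 of the 57 were lower past the threshold (7.02%) and 1 was higher (1.75%), both below the shares over all genes of 11.4% and 5.73%. The lowest M was that of *Tle2*, a corepressor of the Groucho family that Hes factors recruit, with 589 reads in siCtrl against 180 in si*Vgll3*. This gave 3.34 TPM and 1.03 TPM, an M of −1.69 [−1.94, −1.45]. *Dtx4*, of the Deltex family of ubiquitin ligases, was at 17.7 TPM and 8.40 TPM, an M of −1.08 [−1.14, −1.01]. *Lfng*, the Fringe glycosyltransferase that tunes which ligands a receptor answers to, was at 7.59 TPM and 4.30 TPM, an M of −0.82 [−0.97, −0.67]. *Mib2*, a ubiquitin ligase for the ligands, was at 9.22 TPM and 5.62 TPM, an M of −0.72 [−0.81, −0.62].

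The gene above the threshold was *Ccnd1*, the gene of cyclin D1, which Notch and many other pathways control. It was at 86.5 TPM in siCtrl against 170 TPM in si*Vgll3*, an M of 0.98 [0.95, 1.00]. Of the 6 genes tested among targets outside the 10, the other 5 lay between the thresholds, with *Snai1*, the most abundant, at an M of −0.10 [−0.13, −0.07]. *Nrarp*, a direct Notch target that feeds back on the pathway, was under 1 TPM and did not reach A > 0. Its reads numbered 103 in siCtrl against 17 in si*Vgll3*, an M of −2.48 [−3.31, −1.73], and it was singled out after its value was seen. Of the other genes with a read that did not reach A > 0, *Dner* (M −1.58) and *Dlk1* (−1.05) also lay below −0.5. *Dlk2*, with 19 and 114 reads and an M of 2.77 [2.06, 3.55], *Mfng*, with 3 and 11 reads, and *Neurl1a*, with an M of 0.85 [0.49, 1.22], lay above 0.5. *Hes7*, a target, had 0 reads in siCtrl against 12 in si*Vgll3*, and *Dtx1* had 0 against 18, so neither has an M. *Hes2*, *Hes3* and *Hes5* had 0 reads in both libraries.

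Beside *Lfng*, *Dtx4*, *Mib2* and *Tle2*, the genes with A > 0 that process the receptors or act with RBPJ lay between the thresholds. The most abundant gene of each list is given by the mean of both libraries. All 9 tested genes of receptor cleavage had M below 0, from −0.48 to −0.07, and 0 of them passed the threshold. The most abundant was *Ncstn*, a subunit of γ-secretase, at 172 TPM and 164 TPM, an M of −0.07 [−0.10, −0.05]. In siCtrl alone *Adam10*, a protease that cuts the receptor outside the membrane, was above it at 177 TPM, with an M of −0.22 [−0.24, −0.20]. The lowest was *Adam17* at −0.48. Among the 8 coactivators, M ran from −0.43 for *Maml1* to 0.20, and 0 passed. *Snw1*, the most abundant, was at 0.03 [−0.01, 0.07]. The 14 corepressors had a median of −0.05, with *Hdac1*, the most abundant, at 0.08 [0.06, 0.11]. In siCtrl *Ctbp1* was above *Hdac1*, at 171 TPM, with an M of −0.43 [−0.46, −0.40]. The 8 glycosylation genes had a median of −0.25, with *Poglut1* at −0.19 [−0.23, −0.15]. The 11 genes of ubiquitination and trafficking had a median of −0.18 and 2 lower (18.2%, against 11.4% of all genes), with *Nedd4* at −0.18 [−0.19, −0.18]. Apart from *Notch4*, no other receptor or ligand of that list reached A > 0.

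**Figure D4:**
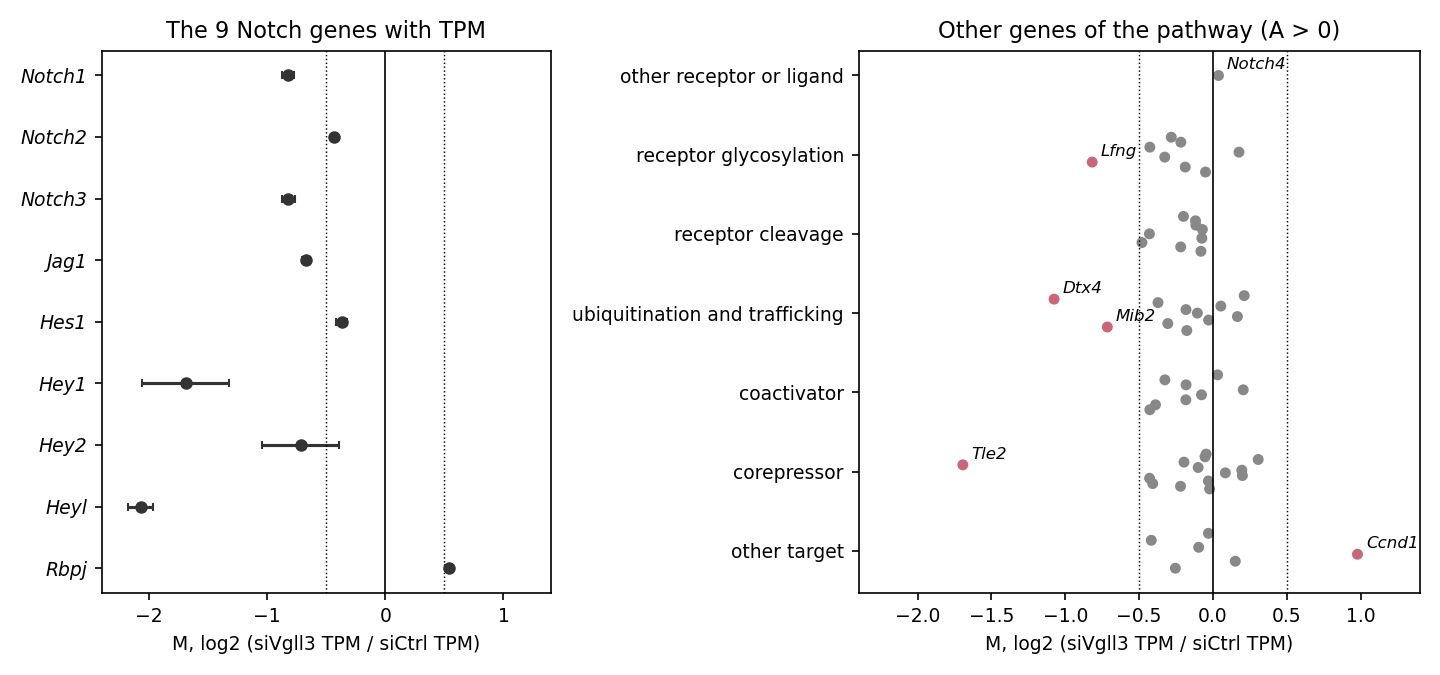
M, log2 of si*Vgll3* TPM over siCtrl TPM, of the 9 Notch genes with their 95% counting intervals (left) and of the 57 other genes of the pathway with A > 0 by list (right), with dotted lines at −0.5 and 0.5. On the left 6 genes lie below −0.5 and *Rbpj* above 0.5, and on the right 52 genes lie between the lines and those past a line are red and named, as is *Notch4* at 0.04.

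Since Notch genes are also used by vessel cells, markers of the cells a culture could hold were read in the same libraries. The markers of the labelled cell type were abundant, and all 10 fibroblast and myofibroblast markers had A > 0. Their sum was 14410 TPM in siCtrl against 8914 TPM in si*Vgll3*, mostly from collagen genes. Of the 10, 6 were lower (against 11.4% of all genes), *Thy1* was higher with an M of 0.72, and *Pdgfra* (0.05), *Ddr2* (0.11) and *Dcn* (−0.26) lay between the thresholds. The fibroblast marker *Col1a2* was at 4585 TPM in siCtrl against 3179 TPM in si*Vgll3*, and *Acta2*, the gene of αSMA, was at 3296 TPM and 3866 TPM. The 6 contractile genes summed to 6131 TPM in siCtrl against 7638 TPM in si*Vgll3*, mostly *Acta2* and *Tagln*. *Tagln* and *Cnn1* were higher past the threshold, while *Myh11*, a marker of mature smooth muscle under 1 TPM in both libraries, had 205 and 71 reads, an M of −1.43 [−1.84, −1.03]. Of the 6 pericyte markers, *Pdgfrb* and *Mcam*, which fibroblasts also make, held nearly all of the signal, with an M of −0.74 [−0.76, −0.72] for *Pdgfrb* and 0.11 [0.08, 0.14] for *Mcam*. The other 4 summed to 1.62 TPM and 1.36 TPM, with *Kcnj8* at 0 reads in siCtrl against 24 in si*Vgll3*. The 10 endothelial markers all had reads and summed to 29.3 TPM and 25.7 TPM, of which *Tek* alone gave 19.5 TPM and 13.4 TPM. *Tek* was lower, with an M of −0.54 [−0.60, −0.48], and the other 9 summed to 9.75 TPM and 12.3 TPM. Among these, *Erg* (−0.52) and *Vwf* (−0.51) lay below −0.5 and *Kdr* (0.97) and *Cldn5* (3.34) above 0.5, all at A below 0, while *Pecam1* was at 0.47 and *Cdh5* at 0.50. The endothelial markers thus had no common direction. Of the 8 leukocyte markers, 5 had reads, with *Ptprc* (CD45), *Adgre1* and *Itgam* at 0, and the sum was 14.3 TPM and 12.1 TPM. Within it *Lyz2* was lower, at 10.9 TPM and 3.13 TPM (M −1.80), and *Cd53* was higher, at 0.760 TPM and 5.91 TPM (M 2.96). *Csf1r* was just past the higher threshold, with an M of 0.504 [0.29, 0.72], and its interval reached below that threshold. Of the 7 cardiomyocyte markers, 5 had 0 reads in both libraries, including *Myh6*, but *Tnnt2* was at 60.0 TPM in siCtrl against 10.4 TPM in si*Vgll3*. *Tnni3* had 0 reads in siCtrl against 10 in si*Vgll3*. The part of any of these marker differences in those of the Notch genes was not tested.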

How the data were processed

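RNA of siCtrl and si*Vgll3* myofibroblasts was sequenced from TruSeq Stranded mRNA libraries. Per the study's methods, reads were inspected (FastQC) and trimmed (Trimmomatic), aligned by HISAT2 to the mm10 build, and assigned to known genes with StringTie. Tool versions, the annotation release and the use of strand in counting are not given in the sources used here. The authors deposited raw read counts per gene, without normalization, and TPM per gene, scaled for length and library size.

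From these, M, A and exact binomial and Poisson intervals were computed with scipy 1.17.1. With 1 library per condition no model was fitted across genes. TMM factors of edgeR 4.0.16 and size factors of DESeq2 1.42.0 served as alternative scalings. The intervals were tested on simulated counts with counting error only, which cannot show how they perform where cultures vary. Positions came from RefSeq on GRCm38.p6, the assembly of mm10, and exons from GENCODE vM21. In RefSeq, 6 of the 10 genes (*Notch1*, *Notch2*, *Notch3*, *Jag2*, *Hey1*, *Hey2*) overlap another gene, so part of their reads may be uncertain.

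Members and lists were chosen with earlier results of these data known. Named were all 10 members, *Vgll3*, pathway genes past the threshold, the most abundant gene of each list, and receptors or ligands at 0 reads. Other genes were named after their values were seen. No gene was named for a like pattern, since 2 libraries give 1 ratio per gene.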

Additional observations from a re-analysis of the deposited data

How the results depend on the processing

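No paired analysis was possible because only 1 library was made for siCtrl and only 1 for si*Vgll3*. Depth limits *Jag2*, *Hey1* and *Hey2*, and the intervals cover counting error alone. All 9 Notch genes kept the sign of M under the 6 alternatives of scaling, added TPM and centring. Over these, M ran from −2.07 to −1.79 for *Heyl*, −1.69 to −0.88 for *Hey1*, −0.71 to −0.37 for *Hey2* and 0.53 to 0.58 for *Rbpj*. *Hey2* passed the threshold in all of them but with 1 TPM added. The median M lay between −0.71 and −0.65 under 9 alternatives.

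A threshold of 1 left 2 of the 9 Notch genes lower (*Hey1* and *Heyl*) and 0 higher. It left 2 of 57 wider pathway genes lower and 0 higher, and 384 of all 11754 genes lower and 207 higher. Without a filter on A, 7 of 66 pathway genes were lower and 4 higher, and 2103 of 14149 genes were lower and 1428 higher. With at least 10 reads in each library in place of that filter, 7 of 65 pathway genes were lower and 3 higher. Of all 13492 genes in that setting, 1853 were lower and 1159 higher. With A > 2, 928 of 9938 genes were lower and 393 higher. With the whole interval past the threshold, 977 of 11754 genes were lower and 442 higher. Pathway genes above 0.5 numbered 2 of 59 with CPM, TMM or DESeq2's size factors, against 751 of 11806 genes with CPM. With 1 TPM added they numbered 2 of 66, against 611 of 14154 genes. The filters change how many genes are tested, and the higher threshold and the interval ask more of each gene. Ranked by CPM, not per length, 5 of the 9 genes had another place in siCtrl.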
